A study of Homo sapiens with 9 samples.

Results

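ARID1B occupied 8728 regions in the HepG2 genome, and the 1625 described here lay outside promoters and gene bodies in the authors' annotation and shared no base with an ARID1A or ARID2 peak. They were chosen by 2 deposited values, the feature class Distal and the bounds of the 3 ARID peak lists, so their distance from a transcription start site (TSS) and their separation from ARID1A and ARID2 are descriptions of the choice. They made up 72.1% of the 2253 distal ARID1B peaks and 18.6% of all ARID1B peaks. The data came from chromatin immunoprecipitation and sequencing (ChIP-seq) of HepG2, an established human liver cancer cell line grown without any treatment or genetic change. Antibodies against ARID1A, ARID1B, ARID2 and SNF5 gave 2 libraries each, and 1 further library was input chromatin. The authors merged both libraries of an antibody before calling peaks, so each subunit has 1 list, replicate error and read depth cannot be given for any list. An antibody, its libraries and its subunit cannot be told apart in these lists.

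SWI/SNF complexes use ATP to slide or evict nucleosomes and so open DNA to transcription factors. ARID1A and ARID1B are alternative, mutually exclusive subunits of the BAF form, ARID2 defines the PBAF form, and SNF5 (SMARCB1, BAF47) is a core subunit found in both. Enhancers are regulatory elements that can lie far from the gene they act on. In hepatocytes they are bound by factors of the FOXA, HNF4 and C/EBP families together with AP-1.

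At the edge of the selection, the member closest to another ARID peak lay 3 bp from it, and 9 members lay within 10 bp. On the other side, the narrowest overlap of a distal ARID1B peak with ARID1A or ARID2 was 1 bp, and 13 such peaks overlapped by at most 10 bp. Distal ARID1B peaks began 1001 bp from a TSS, and promoter ARID1B peaks reached 998 bp. Checked against the later Gencode v44 annotation, 4.31% of members (Wilson 95% confidence interval 3.42 to 5.41) lay within 1000 bp of a TSS and 21.2% (19.3 to 23.3) lay inside a gene, so the distal class depended in part on the annotation used. All intervals for shares here are of this kind and cover counting error over peaks only.

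Sequences of the members show the range of what was called. Each is written 5′ to 3′ from GRCh37, the sequence of hg19, with at most the central 300 bases of a peak. In the first 3 sets capitals mark matches to the motifs named further on. The first set is 3 of the 4 members with the highest scores of an overlapping SNF5 peak, named by their nearest gene.
FITM2 (chr20:42931048-42931099, plus strand): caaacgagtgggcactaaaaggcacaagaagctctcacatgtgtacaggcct
CTD-2050E21.2 (chr5:142934596-142934895, plus strand): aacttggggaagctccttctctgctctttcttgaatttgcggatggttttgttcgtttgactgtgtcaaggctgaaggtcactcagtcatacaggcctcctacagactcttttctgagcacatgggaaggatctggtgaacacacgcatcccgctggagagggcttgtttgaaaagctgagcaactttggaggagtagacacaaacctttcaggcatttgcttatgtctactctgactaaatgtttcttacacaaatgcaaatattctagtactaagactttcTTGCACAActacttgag
VPS54 (chr2:64251147-64251436, plus strand): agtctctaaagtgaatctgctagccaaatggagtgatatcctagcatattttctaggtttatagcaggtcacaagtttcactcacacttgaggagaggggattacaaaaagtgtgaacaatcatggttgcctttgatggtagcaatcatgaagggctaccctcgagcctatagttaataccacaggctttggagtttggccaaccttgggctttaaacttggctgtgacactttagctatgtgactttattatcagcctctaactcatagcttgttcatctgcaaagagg

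FITM2 encodes a lipid droplet protein and VPS54 a vesicle tethering protein. The SNF5 scores were 72, 60 and 47 in the order shown, with 51 at a member beside SCARNA17, beside a median of 19 and a maximum of 134 over the 20718 SNF5 peaks. The next score among members was 46, beside PGAM5P1, a pseudogene.

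The members nearest to 6 genes of liver products are shown because they represent the liver loci described further on. FGA and FGB encode fibrinogen chains, CEBPB a C/EBP transcription factor, APOB the main protein of low-density lipoprotein, ITIH2 a heavy chain of inter-alpha-trypsin inhibitor and AMBP the precursor of alpha-1-microglobulin and bikunin.
FGA (chr4:155518547-155518598, plus strand): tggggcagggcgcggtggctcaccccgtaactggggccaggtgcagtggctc
CEBPB (chr20:48804900-48805066, plus strand): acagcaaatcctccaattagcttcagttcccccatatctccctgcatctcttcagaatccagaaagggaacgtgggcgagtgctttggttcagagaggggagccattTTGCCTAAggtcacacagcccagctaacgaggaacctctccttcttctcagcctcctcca
APOB (chr2:21293087-21293138, plus strand): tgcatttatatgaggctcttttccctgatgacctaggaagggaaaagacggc
FGB (chr4:155481570-155481621, plus strand): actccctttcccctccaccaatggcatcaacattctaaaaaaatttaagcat
ITIH2 (chr10:7742587-7742644, plus strand): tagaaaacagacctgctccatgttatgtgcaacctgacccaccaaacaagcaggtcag
AMBP (chr9:116843426-116843616, plus strand): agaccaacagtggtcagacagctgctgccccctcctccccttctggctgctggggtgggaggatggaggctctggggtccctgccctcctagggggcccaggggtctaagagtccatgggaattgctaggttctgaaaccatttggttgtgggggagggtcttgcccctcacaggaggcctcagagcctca

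Only the CEBPB member of these 6 held a match inside the peak, a C/EBP motif. A further 3 members, picked after their values were seen, held 2 of the 4 motif kinds FOXA, HNF4, C/EBP and AP-1 under an SNF5 peak. Of 458 single-copy members with SNF5 and a width of at most 300 bp, 17 held 2 of these kinds and 0 held more.
AC007403.3 (chr2:67285074-67285360, plus strand): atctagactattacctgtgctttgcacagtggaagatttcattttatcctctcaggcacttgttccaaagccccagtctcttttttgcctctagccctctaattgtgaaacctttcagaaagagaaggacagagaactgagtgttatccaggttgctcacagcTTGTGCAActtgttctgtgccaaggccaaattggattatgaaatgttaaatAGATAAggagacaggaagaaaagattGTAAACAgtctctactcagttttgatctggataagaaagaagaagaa
ATP5C1P1 (chr14:54575574-54575806, plus strand): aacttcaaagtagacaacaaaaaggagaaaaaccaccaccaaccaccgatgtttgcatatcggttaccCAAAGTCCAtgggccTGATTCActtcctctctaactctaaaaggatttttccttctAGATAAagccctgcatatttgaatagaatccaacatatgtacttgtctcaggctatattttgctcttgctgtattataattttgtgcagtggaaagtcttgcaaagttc
RP11-520D19.2 (chr3:81349547-81349811, plus strand): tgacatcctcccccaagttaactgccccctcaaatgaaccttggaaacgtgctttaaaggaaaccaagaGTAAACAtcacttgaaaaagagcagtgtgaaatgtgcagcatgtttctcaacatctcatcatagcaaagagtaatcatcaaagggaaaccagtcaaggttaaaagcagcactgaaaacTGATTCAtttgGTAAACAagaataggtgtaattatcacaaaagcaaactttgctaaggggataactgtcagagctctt

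In these sequences the capitals mark C/EBP, GATA and FOXA matches beside AC007403.3, HNF4, AP-1 and GATA matches beside ATP5C1P1, and FOXA, AP-1 and FOXA matches beside RP11-520D19.2. The other extreme is repeated sequence. The pair below, also picked after values were seen, shares an identical run that is set in capitals.
CTD-2126E3.4 (chr19:50601166-50601439, plus strand): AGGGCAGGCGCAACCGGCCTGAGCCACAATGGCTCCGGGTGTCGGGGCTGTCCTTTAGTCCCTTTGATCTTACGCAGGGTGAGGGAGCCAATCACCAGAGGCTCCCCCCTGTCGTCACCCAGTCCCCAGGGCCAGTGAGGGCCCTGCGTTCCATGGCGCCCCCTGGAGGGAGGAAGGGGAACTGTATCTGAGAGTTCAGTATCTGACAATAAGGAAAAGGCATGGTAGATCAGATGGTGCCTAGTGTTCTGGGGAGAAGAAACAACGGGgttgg
CTD-2126E3.4 (chr19:50607285-50607563, plus strand): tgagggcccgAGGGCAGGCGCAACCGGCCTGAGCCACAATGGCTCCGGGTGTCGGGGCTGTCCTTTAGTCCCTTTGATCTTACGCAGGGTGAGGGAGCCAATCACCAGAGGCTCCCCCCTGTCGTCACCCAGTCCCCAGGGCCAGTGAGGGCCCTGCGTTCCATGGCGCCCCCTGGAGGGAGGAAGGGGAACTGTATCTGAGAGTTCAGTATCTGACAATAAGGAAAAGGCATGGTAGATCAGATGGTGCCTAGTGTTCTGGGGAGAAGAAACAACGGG

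Both peaks lie at 1 locus on chromosome 19 and shared 269 bases, and their 50-base stretches occurred a median of 15 and 14 times in the genome.

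The first question was how often the core subunit was found at ARID1B-alone distal peaks. An SNF5 peak overlapped 636 of the 1625 members, or 39.1% (36.8 to 41.5), beside 62.9% of all ARID1B peaks. The share was lower than at the 628 distal ARID1B peaks shared with another ARID, where it was 92.7% (90.4 to 94.5). The difference was 53.5 percentage points (95% Newcombe interval of members minus shared, -56.5 to -50.2) and had the same sign on 22 of 22 chromosomes. The classes also differed in width, with a median of 132 bp (126 to 139) for members and 231.5 bp (216 to 255) for shared distal peaks. Among members the SNF5 share rose with width, as given below. SNF5 overlapped 43.9% of the 2326 intronic ARID1B-alone peaks, 48.1% of the 903 distal ARID1A-alone peaks and 46.1% of the 1067 distal ARID2-alone peaks. Members minus these classes gave -4.76 (-7.85 to -1.63), -8.92 (-12.9 to -4.89) and -6.97 (-10.8 to -3.15) percentage points. These 3 smaller differences did not hold once peaks of exactly repeated sequence were set aside, as given below. With at least 50% reciprocal overlap the share of members fell to 3.32% (2.56 to 4.31), and members minus ARID2 alone became 1.35 (0.077 to 2.55) percentage points.

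Where SNF5 was present, its peaks at members had a median score of 22 (quartiles 18 and 26), beside 26 (22 and 31) at shared distal peaks. The score is the whole number that the peak caller gave each SNF5 peak. Members without SNF5 lay a median of 16190 bp (11671 to 21455) from the nearest SNF5 peak, a distance that is split by repeated sequence below. SNF5 overlapped 70.2% (65.2 to 74.7) of the 352 members within 1 kb of an ARID1A or ARID2 peak. It overlapped 37.9%, 34.6% and 19.2% of members at 1 to 10 kb, 10 to 100 kb and 100 kb or more. Wider peaks held SNF5 more often, from 20.2% (16.2 to 24.9) of the 322 members of the smallest width, 52 bp, to 71.9% (64.0 to 78.7) of the 139 members of 300 bp or more.

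**Figure D1:**
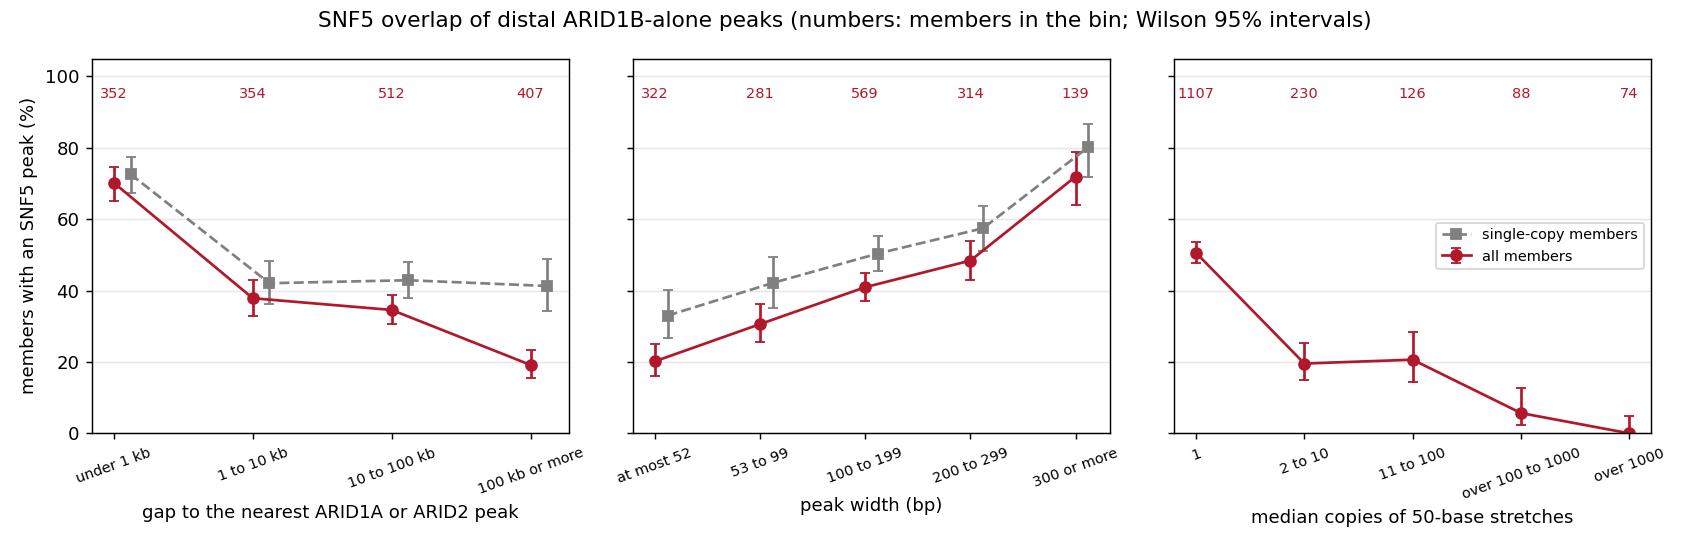
Share of distal ARID1B-alone peaks that overlap an SNF5 peak (y axis, %), split by gap to the nearest ARID1A or ARID2 peak, by peak width in bp and by median copies of the peak's 50-base stretches in the genome. Red points are all members and grey squares single-copy members, with Wilson 95% intervals, and at 100 kb or more from ARID1A and ARID2 the share was 19.2% of all members and 41.3% of single-copy members.

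The second question was what kind of chromatin the members lay in. The authors gave each ARID peak a chromatin state, a label such as strong enhancer or active promoter that summarizes several chromatin marks of a cell type. Enhancer states covered 50.5% (48.1 to 52.9) of members, beside 47.9% of all ARID1B peaks. Strong enhancer states made up most of this, with 529 members in state 4 and 173 in state 5. Promoter states covered 32.4%, beside 39.7% of all ARID1B peaks, mainly active promoter with 394 members, although these peaks lay over 1000 bp from an annotated TSS. Heterochromatin or low signal covered 169 members, or 10.4% (9.01 to 11.98), beside 6.13% of all ARID1B peaks.

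**Figure D2:**
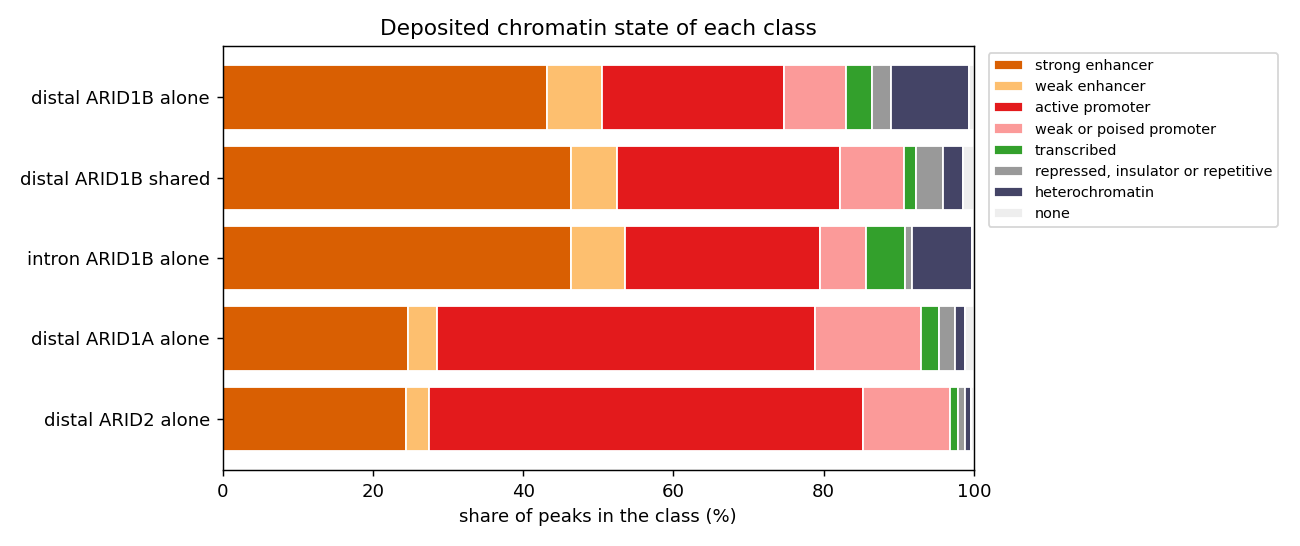
Share of peaks (x axis, %) in each group of deposited chromatin states for distal ARID1B-alone peaks and 4 other classes. Enhancer states (orange) cover 50.5% of members and 28.6% and 27.5% of ARID1A-alone and ARID2-alone distal peaks.

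ARID1B-alone distal peaks differed in state from the distal peaks of ARID1A alone and ARID2 alone. Enhancer states covered 28.6% and 27.5% of those 2 classes, which were 22.0 (18.1 to 25.7) and 23.1 (19.4 to 26.6) percentage points below the members. Active promoter was the commonest state of both, at 50.3% and 57.7%, beside 24.2% (22.2 to 26.4) of members. Heterochromatin covered 1.22% and 0.843% of them, beside 2.71% of shared distal and 7.91% of intronic ARID1B-alone peaks. Members exceeded shared distal peaks by 7.69 (5.58 to 9.57) percentage points, with the same sign on 13 of 22 chromosomes. They exceeded intronic ARID1B-alone peaks by 2.49 (0.673 to 4.37), with the same sign on 11 of 24. Against shared distal ARID1B peaks and intronic ARID1B-alone peaks, the enhancer share of members differed by -2.02 (-6.60 to 2.58) and -3.00 (-6.16 to 0.162) percentage points, intervals that include 0. SNF5 was unevenly spread over the states of members. It overlapped 48.8% (44.5 to 53.02) of members in strong enhancer state 4 and 15.4% (10.7 to 21.6) of members in heterochromatin. Values with peaks of exactly repeated sequence set aside are given below.

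Repeated sequence set the members apart from every other class examined. Interspersed repeats such as L1, Alu and SVA elements fill much of the human genome, and short reads from near-identical copies can align to several places. Every 50-base stretch of each peak, the read length of the study, was therefore counted in the genome on both strands, and a peak was called multi-copy when at least 50% of its stretches occurred more than once. Other peaks were called single-copy. Only exact matches were counted, so single-copy peaks can still hold diverged copies of repeats. Of the members, 518 were multi-copy, or 31.9% (29.7 to 34.2), beside 16.4% of all ARID1B peaks. The share was 8.28% at shared distal ARID1B peaks, 21.2% at intronic ARID1B-alone peaks, 6.76% at ARID1A-alone and 4.87% at ARID2-alone distal peaks. Members exceeded these classes by 23.6 (20.3 to 26.6), 10.7 (7.88 to 13.5), 25.1 (22.2 to 27.9) and 27.0 (24.3 to 29.6) percentage points. The sign was the same on 20 of 22, 22 of 24, 24 of 24 and 23 of 23 chromosomes. How reads with several alignments were treated was not given in the sources used here, and their part in these calls was not tested.

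**Figure D3:**
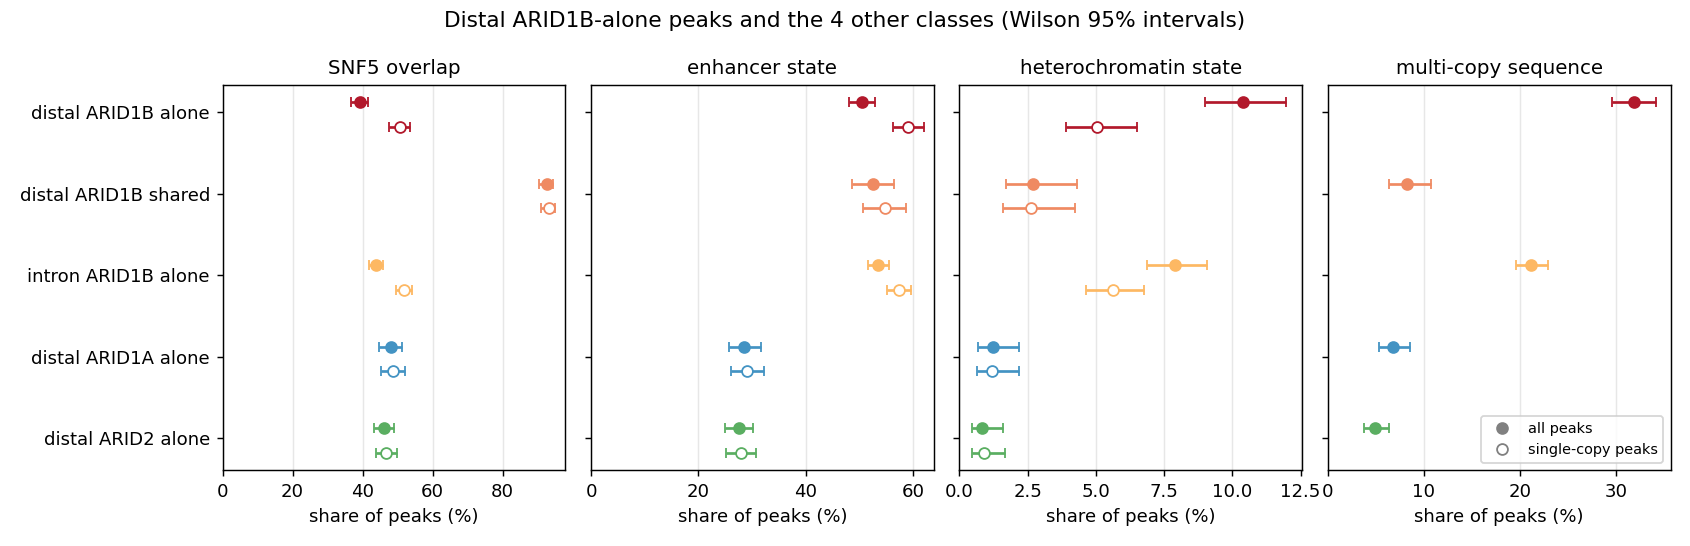
Share of peaks (x axis, %) with an SNF5 overlap, an enhancer state, a heterochromatin state and multi-copy sequence, for distal ARID1B-alone peaks and 4 other classes, where filled points are all peaks, open points single-copy peaks and bars Wilson 95% intervals. SNF5 overlap of members moves from 39.1% to 50.6% among single-copy peaks, next to the ARID1A-alone and ARID2-alone classes.

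Multi-copy and single-copy members differed in SNF5, in state, in width and in distance. SNF5 overlapped 76 of the 518 multi-copy members, or 14.7% (11.9 to 17.98), and 560 of the 1107 single-copy members, or 50.6% (47.6 to 53.5). The share was 19.6% at 2 to 10 median copies, 20.6% at 11 to 100 and 5.68% at over 100 and up to 1000. At over 1000 copies it was 0 of 74 members (upper limit of the interval 4.93%). Multi-copy peaks of other classes varied in SNF5. It overlapped 72 of 493 intronic ARID1B-alone, 45 of 52 shared distal, 24 of 61 ARID1A-alone and 17 of 52 ARID2-alone distal multi-copy peaks. Heterochromatin covered 21.8% (18.5 to 25.6) of multi-copy and 5.06% (3.92 to 6.51) of single-copy members. Enhancer states covered 32.2% (28.4 to 36.4) and 59.1% (56.2 to 61.9). Multi-copy members were narrower, with a median of 109 bp (97 to 122) against 142 bp (132 to 147), and lay farther from a TSS, at 16342 bp (14134 to 19486) against 11419 bp (10418 to 12293). Where SNF5 did not overlap, its nearest peak lay a median of 91305 bp (67113 to 116954) from multi-copy members. For single-copy members this distance was 3417 bp (2279 to 5324), beside 3243 bp at single-copy intronic ARID1B-alone peaks.

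Comparisons among single-copy peaks alone gave other values for the core subunit. SNF5 overlapped 48.7% of single-copy ARID1A-alone and 46.8% of single-copy ARID2-alone distal peaks, and members minus these gave 1.89 (-2.58 to 6.36) and 3.79 (-0.467 to 8.03) percentage points. Against single-copy intronic ARID1B-alone peaks, at 51.8%, the difference was -1.19 (-4.91 to 2.54). The gap to shared distal peaks remained, at -42.6 (-46.1 to -38.9). The excess of enhancer states over ARID1A-alone and ARID2-alone peaks was 30.1 (25.8 to 34.2) and 31.2 (27.1 to 35.1) percentage points among single-copy peaks. Heterochromatin was still 3.87 (2.36 to 5.42) and 4.17 (2.78 to 5.68) points above those classes. Against single-copy intronic ARID1B-alone peaks, enhancer states differed by 1.74 (-1.95 to 5.40) and heterochromatin by -0.560 (-2.18 to 1.18), intervals that include 0. The decline of SNF5 with distance from ARID1A and ARID2 ended at 1 kb among single-copy members, with 72.6% (67.3 to 77.3) under 1 kb and 42.1%, 42.9% and 41.3% in the 3 farther bins. Multi-copy sequence made up 57.7% of all members at 100 kb or more. It also made up 66.9% of members in heterochromatin and 16.8% of those in strong enhancer state 4. Heterochromatin covered 4.29% of single-copy members with SNF5 and 5.85% without, a difference of -1.56 (-4.24 to 1.05) percentage points that includes 0. Strong enhancer states covered 57.3% and 47.5%, a difference of 9.79 (3.91 to 15.6).

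The most isolated members were mostly multi-copy. Of the 1625, 246 (15.1%) lay over 100000 bp from every SNF5, ARID1A and ARID2 peak, of which 190 (77.2%) were multi-copy and 79 (32.1%) were in heterochromatin. On chromosome X, 31 of the 39 members were multi-copy and SNF5 overlapped 2.56% of them. Multi-copy members fell into families that shared a 31-base stretch. There were 39 families of 2 or more holding 342 members, and 176 members stood in no family. The largest held 72 members on 21 chromosomes, of which 21 overlapped SNF5. The next held 64 members on 22 chromosomes with a median of 449 copies, of which 4 overlapped SNF5. Families 3 to 9 in size held 119 members on up to 18 chromosomes, and SNF5 overlapped 0 of them.

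Members also gathered at a few loci. Another member lay within 10000 bp of 450 members, or 27.7% (25.6 to 29.9). The share was 26.1% at intronic ARID1B-alone, 29.8% at ARID1A-alone and 27.0% at ARID2-alone distal peaks, with 40.1% (36.4 to 44.01) at shared distal ARID1B peaks. The 2 densest groups both lay on chromosome 19. One held 23 members in 45485 bp beside IZUMO2, a sperm-egg fusion family gene (chr19:50599503-50644987), and 15 of them overlapped SNF5. The other held 19 members in 54079 bp beside BSPH1 (chr19:48406830-48460908), and 9 of them overlapped SNF5. All members of both loci were multi-copy, at 3 to 20 and 5 to 21 median copies, and 22 and 15 of them were in promoter states. In RefSeq GRCh38.p14, used for gene names and order only, all 10 genes between SULT2A1 and BSPH1 and 12 of the 13 between LOC100287477 and IZUMO2 are SNAR genes, which encode small NF90-associated RNAs transcribed by RNA polymerase III.

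These loci were not without the other subunits. The IZUMO2 locus held 6 ARID1A and 3 ARID2 peaks among its 24 ARID1B and 17 SNF5 peaks, and the BSPH1 locus held 5 and 2 among 24 and 18. The third largest group, 7 members in 21209 bp beside FCGR2A, an Fc gamma receptor gene (chr1:161416212-161437420), also lay among small RNA genes, since RefSeq lists 26 tRNA genes among 28 genes between COMMD6P1 and FCGR2A. All 7 were multi-copy and in promoter states, and 1 overlapped SNF5. Without both chromosome 19 loci the SNF5 share of members was 38.7%.

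**Figure D4:**
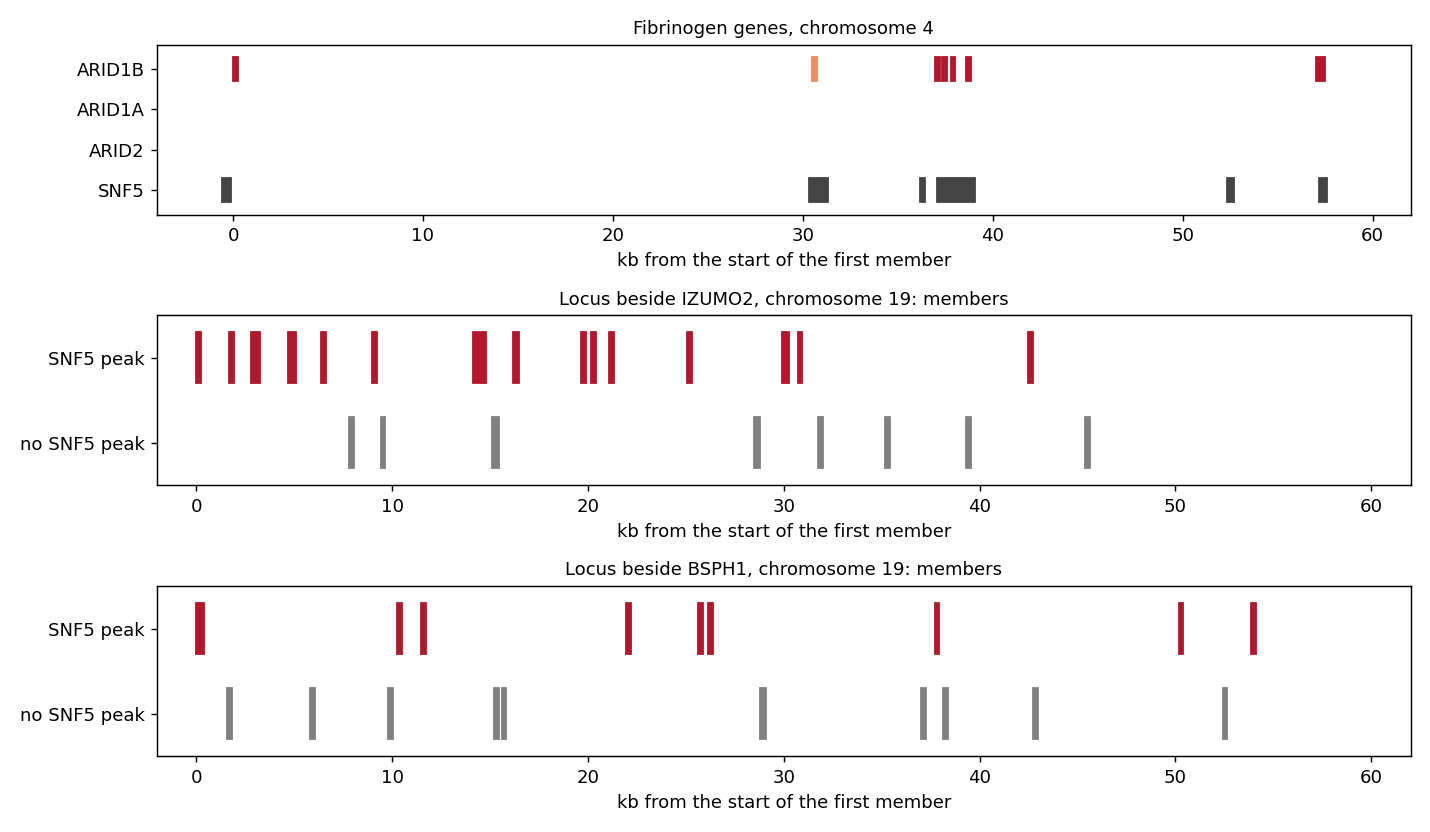
Peak positions (x axis, kb from the start of the first member) at the fibrinogen genes and at both dense loci on chromosome 19, drawn at least 250 bp wide. In the upper panel members are dark red, the other ARID1B peak orange and SNF5 peaks dark grey, and the ARID1A and ARID2 tracks are empty, and in the lower panels members with an SNF5 peak are red, 15 of 23 and 9 of 19, and those without grey.

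Among liver genes, the fibrinogen genes had the most members. FGB, FGA and FGG encode the 3 chains of fibrinogen, a clotting protein that hepatocytes secrete. There, 6 members lay in 57.5 kb (chr4:155481570-155539054), all single-copy by exact matches. All were in strong enhancer states and at least 995710 bp from any ARID1A or ARID2 peak. FGA was the nearest gene of 4 of them, at 6652, 7059, 7479 and 8293 bp from its TSS, and the 3 farther ones lay under 1 SNF5 peak of score 23. The member nearest FGA and the FGB member, 2510 bp from its TSS, missed an SNF5 peak by 40 and 85 bp. Both were 52 bp wide, the smallest width of any member, as was the FGA member at 8293 bp. The FGG member, 461 bp wide and 4702 bp from the TSS, overlapped an SNF5 peak of score 26. Only 1 other ARID1B peak lay between them, 254 bp from the FGA TSS in the promoter class.

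The next question was which genes lay nearest to the members. Over 20149 protein-coding gene names, 2.46% were nearest to at least 1 member, and over 103 listed liver genes 13 were, or 12.6%. Of the same 103 genes, 47 were the nearest gene of an ARID1B peak of any class, so ARID1B peaks beside liver genes were not particular to the members. The share of all protein-coding names nearest to any ARID1B peak is not given here. Counts of this kind describe the lists and were not tested. Plasma proteins had 6 of 33 genes with 9 members, of which 7 overlapped SNF5. Apolipoproteins had 2 of 15, hepatocyte transcription factors 2 of 24, drug and bile metabolism 2 of 20 and oncofetal or growth genes 1 of 12. APOB had 2 members, at 26165 and 27411 bp, both under SNF5 peaks of score 23 and 166 and 154 bp from another ARID. CEBPB had 2, at 2391 and 3114 bp, both with SNF5 of score 22 and 355 and 966 bp from an ARID1A peak.

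Other liver genes had 1 member each. AMBP had one at 2766 bp, 62 bp from an ARID1A peak, beneath an SNF5 peak of score 33, and ITIH2 one at 2614 bp beneath a score of 19. SNF5 did not overlap the members beside APOA5 (3809 bp), which encodes a regulator of plasma triglycerides, CREB3L3 (6552 bp), a hepatocyte transcription factor, CYP7A1 (28893 bp), the rate-limiting enzyme of bile acid synthesis, CYP27A1 (9701 bp), a bile acid enzyme, or DLK1 (16894 bp), a fetal liver gene. The APOA5 and CYP7A1 members missed an SNF5 peak by 168 and 309 bp, and those at CREB3L3, CYP27A1 and DLK1 by 2705, 8739 and 30839 bp.

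Outside the liver lists, Wnt pathway genes had 2 of 17 with a member, NKD1 (17676 bp) and TCF7 (43372 bp), both with SNF5. AP-1 and related genes had 1 of 14, MAFK at 10069 bp without SNF5 but with an AP-1 motif in its window. Neuronal genes had 1 of 17, MAP2, whose 2 members were multi-copy and 469935 and 556440 bp from SNF5. Hippo and TEAD targets (20 genes), SWI/SNF subunits (17), blood lineage genes (13), ribosomal protein genes (15) and the 7 cofactors NFIC, NFIA, NFIB, NFIX, MYBL2, MBD4 and TEAD4 had 0. With a share of 2.46% over all protein-coding names, 0 is a common count for lists of this size. Counting ARID1B peaks of any class, 10, 6, 0, 2 and 4 genes of these lists were the nearest gene of a peak. Of the loci examined in the study, KLF6, MYC, SPOCK2, EPHA2, RRAS, S100A14 and TNS4 were each the nearest gene of 0 members. MYC, KLF6 and SPOCK2 were the nearest gene of 3, 1 and 1 ARID1B peaks of any class, and the others of 0. By Gencode v44 names, 37.7% of members had a protein-coding nearest gene, and the share for other peaks is not given here. Genes renamed since the authors' annotation could be missed by this count. The names with most members were U6 with 41 and Metazoa_SRP with 26, labels that stand for many gene copies, here on 15 and 14 chromosomes.

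The third question was which transcription factor motifs the members held. Short consensus motifs were searched on either strand in 200 bp round each peak's midpoint, and in same-sized windows 2000 bp to either side, which give the local background. The letters searched were TGTTTAC for FOXA, CAAAGTCCA for HNF4, TTGCNNAA for C/EBP, TGANTCA for AP-1, GGAATG for TEAD, GGGCGG for SP and CCGGAAG for ETS factors. Also searched were AGATAA for GATA factors, TCAAGGTCA for NR5A2, ATCGAT for the ONECUT family, GCGCATGC for NRF1, CACGTG for the E-box, AACNGTT for MYB, and the longer motifs of HNF1, NFI and CTCF. The HNF1 and NFI motifs matched 0 members. They were nearly as rare elsewhere, with matches in 0 and 6 of all 8728 ARID1B peaks and in 2 and 0 of 3250 flank windows. Strings that match this seldom cannot show whether members lack HNF1 or NFI sites. In members and flanks, FOXA was found in 4.49% and 2.74%, a difference of 1.75 (0.658 to 2.98) percentage points, and HNF4 in 1.29% and 0.400%, a difference of 0.892 (0.364 to 1.59). AP-1 was found in 7.94% and 5.29%, a difference of 2.65 (1.18 to 4.23), and SP in 9.23% and 5.38%, a difference of 3.85 (2.29 to 5.52). C/EBP (11.8% and 9.72%) and ETS (1.23% and 0.646%) also exceeded the flanks at 95%, but not with intervals widened for all 16 motifs. NRF1 was below its flanks at 95%, at 0.185% and 0.769%, a difference of -0.585 (-0.968 to -0.150), though not with the widened interval. Against shared distal ARID1B peaks, members were lower for 4 motifs, with differences of -4.59 (-8.02 to -1.42) percentage points for C/EBP, -2.27 (-4.07 to -0.920) for ETS, -8.29 (-11.7 to -5.13) for SP and -1.09 (-2.31 to -0.368) for NRF1. For TEAD, at 11.8% and 10.2%, the interval of the difference included 0 (-0.174 to 3.60). Over all ARID1B peaks the shares were 4.09% for FOXA, 1.28% for HNF4, 10.2% for C/EBP, 6.7% for AP-1, 11.1% for TEAD, 21.7% for SP and 3.45% for ETS.

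**Figure D5:**
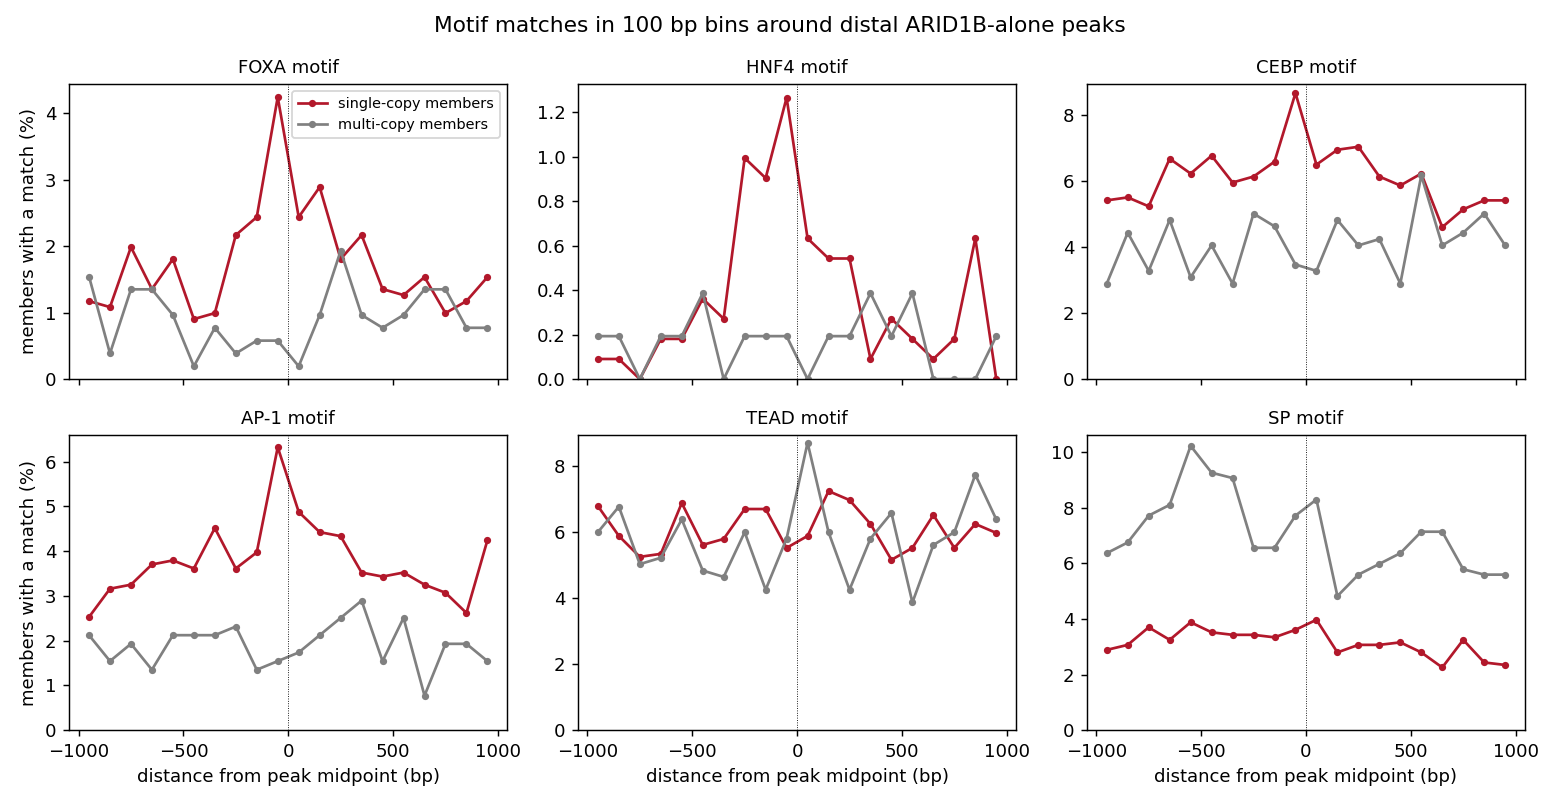
Share of members with a motif match (y axis, %) in 100 bp bins by distance from the peak midpoint (x axis, bp), for single-copy (red) and multi-copy members (grey). In single-copy members FOXA, HNF4, C/EBP and AP-1 are highest in the bin just left of the midpoint, at 4.25%, 1.26%, 8.67% and 6.32%, and TEAD is not.

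Single-copy members held the FOXA, HNF4, C/EBP and AP-1 motifs more often than their flanks. FOXA was found in 6.32% of their windows against 2.44% of flanks, HNF4 in 1.81% against 0.361%, AP-1 in 10.2% against 5.65% and C/EBP in 14.2% against 10.1%, and each exceeded its flanks with the widened intervals, as did ETS at 1.72% against 0.361%. Single-copy intronic ARID1B-alone peaks held FOXA, HNF4, C/EBP and AP-1 in 5.95%, 1.36%, 13.97% and 10.26%. Single-copy shared distal peaks held them in 5.903%, 1.91%, 17.53% and 10.59%. For all 4 motifs, 95% intervals of members minus either class included 0. Against single-copy ARID1A-alone and ARID2-alone distal peaks, members were higher for FOXA, C/EBP and AP-1, while intervals for HNF4 included 0. At least 1 of FOXA, HNF4, C/EBP and AP-1 was present in 28.3% (25.7 to 30.999) of single-copy members and 17.4% (15.9 to 19.1) of their flanks. Multi-copy members had 10.2% (7.91 to 13.1) against 16.5% (14.4 to 18.9), and FOXA in 0.579% against 3.38%. SP motifs had the other pattern, with 14.7% of multi-copy members against 6.47% of flanks, a difference of 8.20 (4.96 to 11.8), beside 1.81 (0.159 to 3.63) in single-copy members. TEAD was also above the flanks in multi-copy members, at 13.9% against 9.56%, a difference of 4.34 (1.006 to 7.98) whose widened interval included 0. Members of a family share sequence, so motif matches of multi-copy members are not independent. Intervals for multi-copy members count every copy separately and can be too narrow.

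FOXA and HNF4 matches were more frequent at single-copy members under SNF5 peaks, though for HNF4 not on most chromosomes. Among single-copy members, FOXA was found in 8.21% with SNF5 and 4.39% without, a difference of 3.83 (0.957 to 6.76) percentage points. For HNF4 the shares were 2.86% and 0.731%, a difference of 2.13 (0.553 to 3.92). The sign was the same on 15 of 23 chromosomes for FOXA and on 9 of 23 for HNF4. These intervals were not widened for the 16 motifs searched. The share with AP-1 differed by 2.47 (-1.12 to 6.06) and C/EBP by 1.29 (-2.84 to 5.41), intervals that include 0. The GC content of members had a median of 46.6% (46.1 to 47.3), beside 44% in the flanks and 46.2% at intronic ARID1B-alone peaks. It was 50.3% at shared distal ARID1B peaks, 55.8% at ARID1A-alone and 49.4% at ARID2-alone distal peaks. The median distance from a TSS was 12501 bp (11618 to 13681) for members, beyond 7359 bp (6436 to 8201) for ARID1A alone and 7195 bp (6510 to 8016) for ARID2 alone. A median of 17331 bp separated members from the nearest ARID1A or ARID2 peak, a value the selection itself bears on.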

How the data were processed

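Per the labels and the study's methods, 50-base single-end reads were aligned to hg19 with Bowtie2, duplicates were filtered, both libraries of an antibody were merged, broad peaks were called with MACS2, nearby peaks were joined and blacklisted regions removed. The authors deposited annotated peak bounds for each ARID with nearest gene, TSS distance, feature class and chromatin state, and SNF5 peaks with a whole-number score. The source of the states, read depth and the treatment of reads with several alignments are not given in the sources used here.

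Members and gene lists were chosen with earlier results of these data known. The deposited single or multiple label was not used to choose members. Peaks overlapped when they shared at least 1 base. Shares carry Wilson and differences Newcombe 95% intervals, medians order-statistic intervals. With 1 list per subunit no test over samples exists. Copies of 50-base stretches, motifs and base composition were read from GRCh37 with pysam 0.24.0. The code was tested on simulated peaks. Named genes were up to 5 per list with most members, the 10 names with most members, the nearest genes of the 5 members with the highest SNF5 scores, and loci examined in the study. Of these, snoU13, Y_RNA, AC124853.1, CTD-2126E3.4, PS1TP5 and RP3-431P23.2 had 18, 15, 15, 14, 5 and 5 members, IZUMO2 had 9 and ATP5C1P1 had 7. Alternatives were other overlap rules, widths, distances, windows and strata. Some member sequences are not reported here.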

Additional observations from a re-analysis of the deposited data

How the results depend on the processing

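No paired analysis was possible because both libraries of an antibody were merged before peaks were called, and for the same reason no replicate could be left out. Of 327 alternatives over 43 results, 279 kept direction and side of the threshold or moved by less than their error. The SNF5 share of members became 30.6% for members over 1000 bp from ARID1A and ARID2 (minus ARID1A alone -3.37, minus ARID2 alone -1.25 percentage points), 51.3% for peaks at or above the median width (minus intronic ARID1B alone -4.83, ARID1A alone -2.17, ARID2 alone -2.47), 50.6% for single-copy peaks (-1.19, and in the other direction 1.89 and 3.79), 54.5% with a gap of up to 1000 bp, 27.9% with SNF5 peaks at or above the median score and 3.32% with 50% reciprocal overlap (-0.63 and -0.44, and 1.35 in the other direction, 0.077 to 2.55). The multi-copy share was 36.8% over 1000 bp from other ARIDs, 27.0% at or above the median width, 41.4% with any stretch repeated and 25.05% with every stretch repeated. The enhancer share was 59.1% in single-copy members. The median TSS distance was 14153 bp over 1000 bp from other ARIDs, 11419 bp in single-copy members and 18374 bp over 5000 bp from a TSS. The clustered share was 20.7%, 19.05%, 17.6% and 40.2% over 1000 bp from other ARIDs, at or above the median width, with nearby peaks joined and within 50000 bp. Among motifs found in over 10 members, the number that differed from shared distal peaks was 3, and 7 with 400 bp windows. Of 165 alternatives for single motifs 147 kept their side, 9 lost it, 9 gained it and 0 reversed. The cause of these changes was not tested beyond the fewer peaks or other rule each used. The single-copy, chromosome 19 and multi-copy alternatives and the widened motif intervals were chosen after seeing the data.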
